A study of Mus musculus with 8 samples.

Results

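Total RNA from mouse embryonic stem cells (mESCs) was sequenced to ask how gene expression depends on TET1, an enzyme that oxidises methylated cytosine, in its wild-type and its D2018A form. The values described here are those of 9 genes of Nodal signalling: the ligand gene Nodal, the co-receptor gene Tdgf1, the antagonist genes Lefty1 and Lefty2, the signal transducer gene Smad3, and the feedback and target genes Smad7, Skil, Ski and Pmepa1. The genes were chosen by name as a pathway set, and each matched 1 row of the 19429 genes in the deposited table. The set was drawn up after the authors' own contrast of the genotypes had been seen, so the choice was informed by the results of that contrast.

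All cells were LF2 mESCs with a C-terminal FLAG tag on TET1, grown in serum with LIF, and every line, WT included, had a fluorescent protein gene joined behind the tag. WT cells (lines 2 and 5) had unmutated TET1, and D2018A cells (lines 7 and 8) had an alanine in place of an aspartate, a change that weakens the binding of TET1 to the O-GlcNAc transferase OGT. Each line grew from a single cell and was sequenced as 2 technical replicates, which gives 8 samples, 4 per genotype, from 2 lines per genotype. According to the study's methods, the WT cells also had a large deletion outside Tet1 that the D2018A cells lacked, so genotype and deletion cannot be told apart from RNA-seq of these lines alone. To address this, the study examined cells with wild-type TET1 and a kept copy of that region, by qPCR and mass spectrometry. Those cells were not analysed here. The deposited table gives 1 mean per gene over all libraries, with neither genotype separate, and the authors' contrast was not used. The levels below are therefore means over all libraries of the authors' fit, and no difference between WT and D2018A is given. The smallest means fell on 12 steps, each the size of 1 read in 1 library, so 12 libraries were averaged where 8 samples are described, and the origin of the other 4 was not tested. Their relative depths ran from 0.726 to 1.47, and their total averaged 10937569 normalised counts. In bulk RNA, fewer cells with a transcript and less transcript per cell cannot be told apart.

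Nodal is a secreted factor of the TGF-beta family that acts through activin receptors, together with a co-receptor of the EGF-CFC family such as the product of Tdgf1 (Cripto). The receptors phosphorylate SMAD2 and SMAD3, which join SMAD4 and partners such as FOXH1 to switch on targets. Lefty1 and Lefty2 are among those targets and encode secreted inhibitors of Nodal, which closes a feedback loop. In the early embryo this pathway patterns the body axes, and mESCs signal through it with ligands that they make themselves.

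Because Lefty1 and Lefty2 are near copies, their sequences decide how a read can be assigned. Both genes lie on the plus strand of chromosome 1 (GRCm38), Lefty2 from 180893108 to 180899103 and Lefty1 from 180935022 to 180938400, with 35918 bases between them. Each encodes 368 residues in 4 exons. Over the 1104 coding bases of the reference transcripts (GENCODE M21) the pair was 91.8% identical, with no gap. The longest identical run was 140 bases, so that a 50-base read from within it fits both genes equally.

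The differences were concentrated near the 5′ end. The window of 50 coding bases that differed most lay in exon 1, at chr1:180935139-180935188 in Lefty1 and at chr1:180893213-180893262 in Lefty2, with 15 mismatches, shown in capitals. Reads from here can be told apart.
Lefty1, coding bases 30 to 79: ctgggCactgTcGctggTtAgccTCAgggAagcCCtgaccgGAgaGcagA
Lefty2, coding bases 30 to 79: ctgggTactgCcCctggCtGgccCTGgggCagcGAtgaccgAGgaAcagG

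Along the coding part, windows of 50 bases that started within the first 200 bases had 8 to 15 mismatches, and those that started between bases 500 and 1000 had 0 to 4. Of 1055 windows, 26.6% had no mismatch and a further 42.7% had 1 to 3. The plot of mismatches by position shows the identical stretches as separate blocks.

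**Figure D1:**
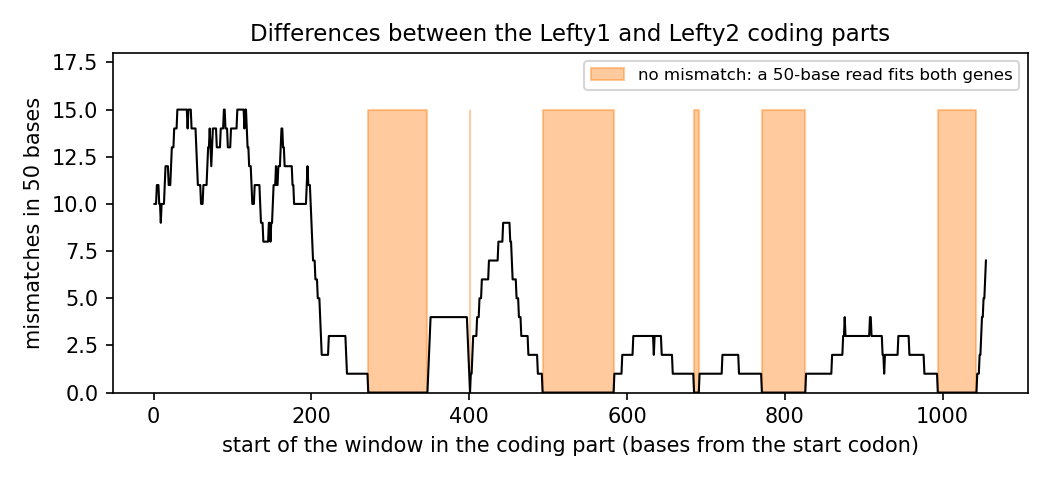
Mismatches between the coding parts of Lefty1 and Lefty2 (y axis, number in each window of 50 bases) against the start of the window (x axis, bases from the start codon). Shaded blocks mark windows with 0 mismatches, which make up 26.6% of the 1055 windows, and windows with up to 15 mismatches lie in the first 200 bases.

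Counting the annotated transcripts of the genes with their untranslated parts and retained introns, 17.9% of the 1707 distinct 50-base stretches of Lefty1 also occurred in Lefty2. Of the 2560 stretches of Lefty2, 307 occurred in another gene, all but 1 of them in Lefty1. Tdgf1 shared 8.86% of its 2665 stretches with its processed pseudogene Tdgf1-ps1. The other 6 genes (Nodal, Smad3, Smad7, Ski, Skil and Pmepa1) shared 0 stretches with any other annotated transcript. The counts of Lefty1, Lefty2 and Tdgf1 are thus uncertain, since reads that fit several places can be dropped or split.

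The study measured Lefty1 and Lefty2 by qPCR as well, and its primers were placed on both transcripts to see how far they separate the copies. Capitals mark a base that differs from the best site in the other gene.
Lefty1 forward: ctaTggagctcaaggcaatt
Lefty1 reverse: gttctaggatccagttctcg
Lefty2 forward: ggttcctgacGtatgaatgt
Lefty2 reverse: ctccttcacActgacaatca

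Each primer matched its own transcript exactly at 1 place, in coding sequence. The Lefty1 forward primer joins exons 3 and 4 and differed from Lefty2 by 1 base, T4C, counted from 1 at the 5′ end of the primer with the base of the primer first. The Lefty1 reverse primer, in exon 4, had 0 mismatches to Lefty2. The Lefty2 primers, both in exon 4, differed from Lefty1 by 1 base each, G11A in the forward primer and A10G in the reverse primer.

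Of the other related genes, 4 pairs were aligned, and each was less alike. Coding identity was 77.1% between Smad2 and Smad3, 68.9% between Smad6 and Smad7, 62.8% between Ski and Skil and 58.9% between Nodal and Gdf3, a related ligand gene. The longest identical run in these pairs was 23 bases, between Smad2 and Smad3, so none of these pairs shared a 50-base stretch.

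Expression of the 9 genes was then ranked. Levels are the authors' mean normalised counts (read counts scaled for library depth, then averaged over all libraries), and levels of different genes are compared only per kilobase of exon. All 9 lay above the median of 17.1 per kilobase over the 19342 genes with an exon length, and the highest, Tdgf1, was 19.95 times the lowest, Lefty1 (18.8 to 21.1). Intervals are of 95% and cover counting error only. The spread between lines or libraries was not analysed here.

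The ligand gene Nodal (chromosome 10, 61417972 to 61425338) had an authors' mean of 468 normalised counts, which is 223 per kilobase (218 to 229). Its level was higher than that of 88.1% of genes. Tdgf1 (chromosome 9, 110939603 to 110946158) was the highest of the 9, with an authors' mean of 2961 and 1129 per kilobase (1117 to 1141). Only 324 genes in the table were higher per kilobase, and Tdgf1 was 5.06 times the level of Nodal (4.91 to 5.20). In these pooled means, transcripts of the co-receptor gene were thus higher per kilobase than those of the ligand gene. With the longest transcript as the length, the ratio was 6.86.

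Both antagonist genes were lower per kilobase than Nodal and Tdgf1. Lefty2 had an authors' mean of 252 normalised counts and 96.7 per kilobase (93.2 to 100.1), higher than 76.4% of genes. Lefty1 had an authors' mean of 99.5 and 56.6 per kilobase (53.4 to 59.8), higher than 67.6% of genes and the lowest of the 9. Lefty2 was 1.71 times the level of Lefty1 (1.60 to 1.83). Per 1000 stretches of 50 bases found in no other transcript, the levels were 112 for Lefty2 and 71.0 for Lefty1, a ratio of 1.58. Such a length is apt only if shared reads were dropped, which was not tested. Nodal was 2.31 times the level of Lefty2 (2.21 to 2.41) and 1.46 times the sum of both antagonists, or 1.25 times with the unshared stretches as the length. Neither antagonist overlapped another annotated gene.

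Of the receptor-activated SMADs, Smad3 (chromosome 9, 63646767 to 63757994) had an authors' mean of 555 normalised counts and 100.2 per kilobase (97.8 to 102.6), higher than 76.9% of genes. Smad2, which encodes its partner in Nodal signalling, had 89.98 per kilobase, so that the level of Smad2 was 0.898 times that of Smad3 (0.870 to 0.927). Smad4, the gene of the SMAD that both join, was 2.15 times the level of Smad3 (2.08 to 2.21). With total exon length the levels of Smad3 and Lefty2 did not differ beyond counting error (ratio 1.04, 0.993 to 1.08). The ratio was 1.07 with the longest transcript, and per 1000 unshared stretches the order turned, with 101 for Smad3 and 112 for Lefty2.

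Among the genes of negative feedback, Ski and Smad7 stood at high levels. Ski (chromosome 4, 155154075 to 155222592), a nuclear co-repressor that binds SMADs, had an authors' mean of 3637 normalised counts and 654 per kilobase (648 to 660), higher than 96.4% of genes. Smad7 (chromosome 18, 75367529 to 75395935), an inhibitory SMAD that blocks the receptors, had an authors' mean of 2279 and 504 per kilobase (498 to 510), higher than 94.9% of genes. Smad7 was 7.09 times the level of Smad6 (6.81 to 7.37), the other inhibitory SMAD gene, which acts mainly on BMP signals.

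Skil (chromosome 3, 31095058 to 31122577), which encodes the co-repressor SnoN, had an authors' mean of 818 normalised counts and 84.3 per kilobase (82.7 to 86.0). The level of Ski was 7.75 times that of Skil (7.58 to 7.92) with total exon length and 5.41 times with the longest transcript. Skil was the gene whose place moved most with the length, since its 6 annotated transcripts cover 9694 exon bases and the longest of them 6717. With the longest transcript Skil had 122 per kilobase and rose from the eighth to the sixth place. Pmepa1 (chromosome 2, 173224458 to 173276533), a membrane protein gene whose product holds SMADs away from the receptor, had an authors' mean of 601 and 122 per kilobase (119 to 125), higher than 80.1% of genes.

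**Figure D2:**
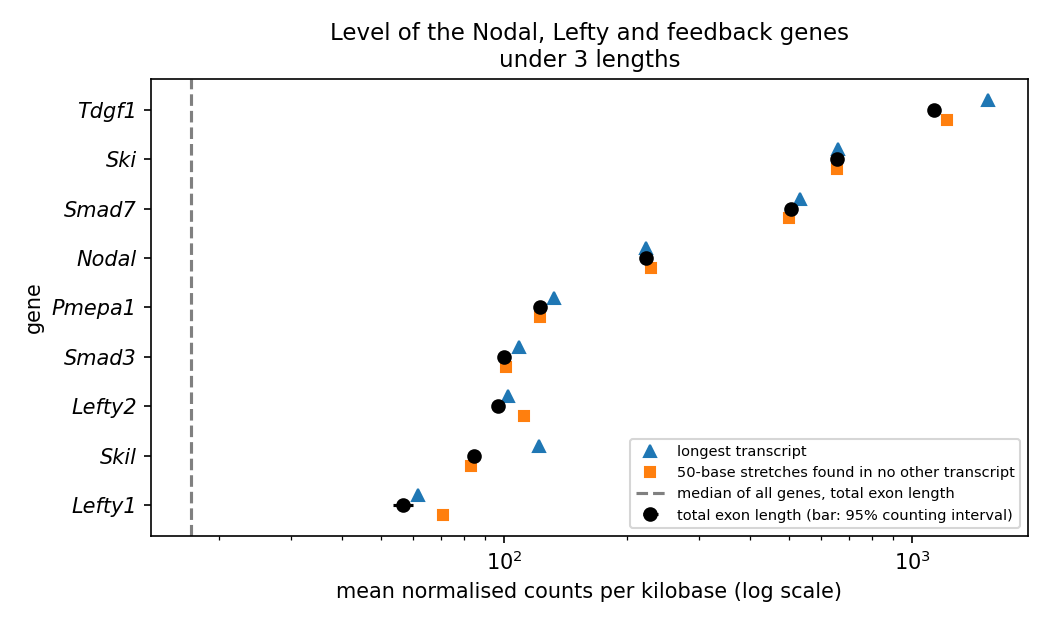
Level of the 9 genes (y axis) as the authors' mean normalised counts per kilobase (x axis, log scale), with total exon length (circles, bars for 95% counting intervals), the longest transcript (triangles) and 50-base stretches found in no other transcript (squares). Tdgf1, Ski, Smad7, Nodal and Pmepa1 hold the first 5 places under every length, Lefty1 is last, and all lie above the dashed median of all genes at 17.1.

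The remaining genes of the pathway were described from lists by role. Of 44 such genes, 41 were in the table, and 33 of the 41 had an authors' mean of at least 10 normalised counts, against 66.3% of all genes in the table. Their median level was 42.1 per kilobase, beside 122 for the 9 genes and 17.1 for all genes. Of the 41, 25 were below Lefty1 per kilobase and 1, Foxh1, was above Tdgf1.

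Among ligands and the convertases that cleave them, 6 of 7 genes in the table reached a mean of 10, against 66.3% of all genes. Gdf3, a ligand gene of pluripotent cells, was the highest at 915 normalised counts per kilobase, which is 4.10 times the level of Nodal (3.98 to 4.22), and Tgfb2 was the lowest at 1.86. The convertase gene Pcsk6 had 227 and Furin 73.7. Among receptors and co-receptors 6 of 7 reached that mean, led by Acvr1b, the type I receptor that Nodal uses, with 269.5 per kilobase. Cfc1, which encodes the second EGF-CFC co-receptor, was the lowest at 1.44, and Tdgf1 was 785 times its level (493 to 1248).

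The other secreted or membrane antagonists were below both Lefty genes per kilobase. Of them, Inha and Fstl3 (23.9) lay above the median of all genes, 17.1 per kilobase. Of 6 genes 5 reached a mean of 10, against 66.3% of all genes, and 0 reached 100, which Lefty1 also missed. A mean of 99.5, that of Lefty1, was higher than that of 55.1% of genes. Inha, the inhibin alpha gene, was the highest at 42.1 per kilobase, below Lefty1. Cer1, which encodes the Nodal inhibitor Cerberus, was the lowest at 0.0443 per kilobase, and its mean of 0.0771 equalled that of 1 read in 1 library. Dand5, a related inhibitor gene, had 16.3. Lefty1 and Lefty2 were thus higher per kilobase than each of these 6 antagonist genes.

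Transducers and intracellular inhibitors were expressed throughout. All 5 SMADs and nuclear partners had means of at least 100, from Zfyve9 at 53.0 to Foxh1 at 1675 per kilobase, and Foxh1 was higher than 99.1% of genes. For scale, 55.1% of genes had means below the 99.5 of Lefty1. All 9 intracellular inhibitors also had means of at least 100. Tgif1, a co-repressor gene, was the highest of them at 552 and Ppm1a, the gene of a SMAD phosphatase, the lowest at 29.8.

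Genes that Nodal switches on in the primitive streak and mesendoderm were mostly near 0. Of 7 genes, 2 reached a mean of 10, against 66.3% of all genes. Eomes was the highest at 47.8 per kilobase, higher than 65.0% of genes. Lhx1 was the lowest at 0.0196, with a mean of 0.0797 that equalled 1 read in 1 library. Mixl1 had 5.14, Gsc 4.02, Foxa2 2.18 and T (Brachyury) 1.72. Both Lefty genes were higher per kilobase than each gene of this list, and Eomes came closest to Lefty1.

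**Figure D3:**
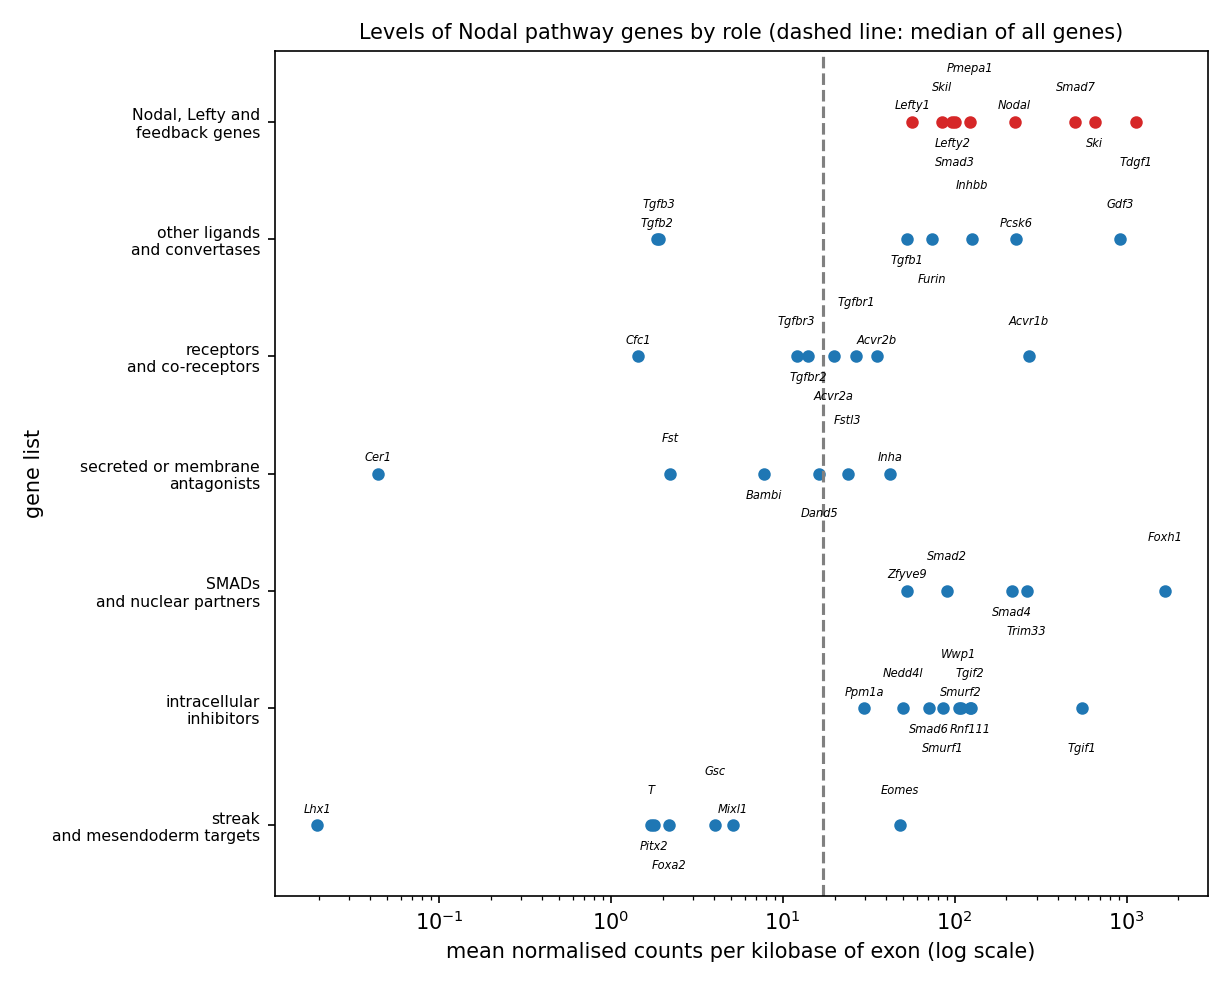
Authors' mean normalised counts per kilobase of exon (x axis, log scale) for genes of the Nodal pathway, 1 point per gene, in 7 lists by role (y axis). The 9 genes of the set (top row, from 56.6 to 1129) all lie right of the dashed median of all genes at 17.1, while 6 of the 7 streak and mesendoderm targets lie left of it.

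The promoters tabulated (RefSeq, GRCm38.p6, 300 bases around each start site) matched 4 of the 9 genes. Of these, Ski (chromosome 4, 155222486 to 155222785) held 59 CpG dinucleotides in 300 bases, more than 99.9% of the 32851 promoters listed. Smad3 (chromosome 9, 63757945 to 63758244) held 25, more than 81.6%. The promoters of Tdgf1 (chromosome 9, 110946109 to 110946408) and Nodal (chromosome 10, 61417722 to 61418021) held 7 and 5, beside a median of 7. The sites CAGAC and GGCGC, which SMAD proteins are known to bind, were searched on both strands. CAGAC occurred once in Tdgf1 and in 0 of the other 3, against 49.6% of all promoters with at least 1. GGCGC, which is made of G and C only, occurred 7 times in Ski and in 0 of the other 3, against 36.9% of all promoters with at least 1. The Ski promoter was 85.3% G and C, beside 67.7% in Smad3, 54.0% in Nodal and 41.7% in Tdgf1. Whether Ski has more GGCGC sites than this base composition gives was not tested. The FOXH1 motif AATNCACA occurred in 0 of the 4 and in 3.60% of all promoters. With so low a share, 0 of 4 does not set these promoters apart. Sequence outside the 300 bases was not searched. Methylation of these promoters was not analysed here.

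Markers of mESCs were high in the averaged libraries. All 8 stem cell markers (Pou5f1, Sox2, Nanog, Esrrb, Klf4, Zfp42, Dppa5a and Tfcp2l1) had means of at least 100. The lowest of these means, 977 (Zfp42), was higher than that of 87.2% of genes. Levels of the 8 ran from 519.5 per kilobase (Zfp42) to 3817 (Esrrb). Markers of other cell types were lower. Levels ran from 1.57 to 19.7 per kilobase over 4 primitive endoderm genes and from 11.5 to 41.2 over 3 neural genes. They ran from 0.0554 (Col1a2) to 64.8 (Thy1) over the 3 fibroblast genes in the table, with Col1a1 at 17.5. Over 4 trophectoderm genes they ran from 0.192 to 460. The 460 was that of Tfap2c, which mESCs also express, and Cdx2 was at 0.659. The part of such cells in the values above was not tested.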

How the data were processed

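RNA was depleted of ribosomal RNA, and libraries made with a total RNA kit were sequenced as single-end reads of 50 bases. Per the labels and the study's methods, the authors aligned and counted reads with STAR 2.5.3a on GRCm38.p6 and normalised counts with DESeq2 1.20.0. Whether counting used strand is not given in the sources used here. The deposited signal used here is the authors' mean normalised count per gene over all libraries of that fit, with a total of 10937569. The table's further columns hold the authors' contrast of D2018A with WT (log2 fold changes, standard errors, statistics and p-values). They were not used, and the planned count model was not run, because the table has no counts per library. No other column of per-sample values was used (0 columns).

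Means were divided by total exon length from GENCODE M21, which matched 19342 of the 19429 identifiers. All 9 genes of the set had the same start and end in both. Counting intervals assume that reads followed library depth. Libraries were counted from means shared by at least 30 genes and not sums of lower ones, a step tested on simulated data. Stretches of 50 bases were matched on both strands of all annotated transcripts, and coding parts were aligned globally with Biopython 1.88. The study's primer sequences were read from its supplement. The genes of the set, the lists by role and the markers were chosen with earlier results of these data known. Of the lists, the highest and the lowest gene and the relatives of the 9 genes were to be named. Others named (Pcsk6, Furin, Dand5, Fstl3, Smad4, the streak genes, Cdx2 and Tfap2c) were chosen after their values were seen. Some items are not reported here. Python 3.11.15 was used throughout.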

Additional observations from a re-analysis of the deposited data

Results flagged for a closer look

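The number of single-read steps among the smallest means exceeded the number of samples described by 4, so signal from libraries beyond those samples entered the means. The study's reproducibility statement gives more derived lines per genotype than the 2 sampled here. Whether those lines supplied the extra libraries was not tested. The means of Nodal, Tdgf1, Lefty1, Lefty2 and the other genes of the set include these libraries, and which cells they came from was not tested.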

How the results depend on the processing

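All 9 genes stayed above the median when the length was the longest transcript, and also against protein-coding genes alone or genes whose mean reached 10. Against the latter the margin was small for Lefty1, which was higher per kilobase than 51.3% of them. Skil was higher than 61.0% and Lefty2 than 64.4%. The pathway genes detected were 33 at a mean of at least 10, 38 at 3 and 25 at 100. Of all genes, 66.3% reached a mean of 10, and 55.1% had means below the 99.5 of Lefty1. The count of 12 libraries was also 12 with steps of at least 20 genes but 5 with steps of at least 50, because 7 steps are shared by fewer genes. The longest transcript moved the levels of 7 of the 9 genes beyond their counting intervals, by up to 1.44 times (Skil), and the unshared stretches, a length chosen after seeing the files, moved 3 (Lefty1, Lefty2 and Tdgf1), by up to 1.25 times. Positions found once in the genome were not counted, since no genome was used. No paired analysis was possible because the table holds no values per library, and for the same reason no replicate was left out and no other normalisation of the contrast was run. Depth limits the lowest genes, such as Cer1 and Lhx1, whose means rest on 1 read.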
